A study of Mus musculus with 12 samples.

Results

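Vascular endothelial growth factor (VEGF) is the signal by which podocytes, the epithelial cells on the outside of the glomerular filter, maintain the fenestrated endothelial cells on its inside. Vegfa is secreted across the basement membrane and binds receptor tyrosine kinases on the endothelium. Kdr (VEGFR2) carries most of the growth signal, Flt1 (VEGFR1) binds Vegfa tightly but signals weakly and in its soluble form acts as a trap, and Flt4 (VEGFR3) is the receptor of Vegfc. Vegfb and Pgf (placental growth factor) bind Flt1, and the neuropilins Nrp1 and Nrp2 are coreceptors that present VEGF to the kinases and also bind class 3 semaphorins. Both too little and too much podocyte VEGF are known to damage the filter.

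The genes described here are these 9, namely 4 ligands, 3 receptors and 2 coreceptors, chosen by symbol and not by their values, out of 27592 genes listed for males and 26048 listed for females. Each was listed in every library. Polyadenylated RNA was sequenced from isolated mouse glomeruli in 4 groups labelled 3.5 months of age; the study's supplement gives a slightly older age. Male WT mice (mWT) and female WT mice (fWT) were C57BL/6J. Male AS mice (mAS) were labelled Col4a5-/- and female AS mice (fASht) were labelled Col4a5+/- heterozygotes, both of the line B6.Cg-Col4a5 tm1Yseg/J, a model of Alport syndrome (AS). Col4a5 encodes a type IV collagen chain of the glomerular basement membrane and is X-linked, so that a male carries a single copy and a heterozygous female is a mosaic of cells using either copy. The mutation is in the germline, hence in every cell type of the glomerulus and of the tubules, and the labels name no treatment. Per the study's methods glomeruli were isolated mouse by mouse, and p-values measure the spread between libraries.

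Each group was listed with 3 libraries. The table of fWT replicate 3 names replicate 1 in its header and repeats its values, equal within a relative tolerance of 1e-06 in all 20927 genes above 0.001, and was counted once with replicate 1. This left 11 distinct libraries, 6 male and 5 female, with fWT at n = 2. The headers of the female WT tables carry 1 code (SE5411) and those of the female AS tables another (SE6183). What the codes stand for is not stated. If they mark a batch, batch and genotype cannot be told apart in females. The male tables carry no such code. Values were read counts scaled by the trimmed mean of M-values (TMM), which sum to between 14242206 and 23182937 per library. Steps among the low values put the depth at an estimated 14494678 to 20309418 read pairs. Col4a5, the check of the labels, was lower in AS with no overlap of the groups in either sex, by −1.15 ± 0.18 (SE) on the log2 scale in males (limma with Benjamini-Hochberg adjustment over all genes, adjusted p = 0.00609) and by −0.70 ± 0.14 in females (adjusted p = 0.0684), where it did not pass.

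Tubule genes differed between the male groups, and these values stand beside every male comparison below. In males all 20 of 20 proximal tubule markers were lower in AS (median log2 fold change −2.37), and their summed values lay between 296964 and 511247 in mWT and between 43463 and 108363 in mAS. In the same comparison 7 of 12 distal nephron and 5 of 6 parietal epithelial markers were lower and none was higher, while 14 of 18 podocyte markers (median 0.97) and 11 of 20 glomerular endothelial markers (median 0.84) were higher and none was lower. Of mesangial markers 1 was higher and 1 lower of 9 tested, of arteriolar smooth muscle markers 1 was higher and 2 lower of 5, and of macrophage markers 1 was lower of 8. In females none of the podocyte, endothelial, mesangial, smooth muscle, parietal, proximal tubule or macrophage markers passed the test, and 3 of 12 distal nephron markers were higher. The median over all genes tested was 0.00 in males and −0.01 in females. In such bulk samples fewer cells of a type and less RNA per cell cannot be told apart.

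The study centres on the microRNA miR-93, whose 5p strand is known to target Vegfa, so its sequence and its possible sites among the 9 genes are shown first. Capitals mark the seed (bases 2 to 8) in the microRNA, written with U, and the 7 complementary bases GCACTTT in the sites, written with T as in the genome (GRCm38, GENCODE M21 annotation for the sites, RefSeq for the microRNA). The longest annotated 3′ UTR of Vegfa held 1 such site, at chr17:46018690-46018696 on the minus strand, and that of Nrp2 held 2, at chr1:62796060-62796066 and chr1:62798145-62798151 on the plus strand.
mmu-miR-93-5p: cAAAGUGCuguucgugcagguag
Vegfa site: tcttcgaggaGCACTTTgggtccggag
Nrp2 site 1: cctcgattttGCACTTTttttctcctc
Nrp2 site 2: gcgtcacggaGCACTTTttgttgttgt
None of the sites was followed by an A, the base that lengthens a seed match. The other 7 genes held no match in their longest 3′ UTR, and 11.8% of 20999 genes with a 3′ UTR held at least 1. A match is a description of these letters and not a site in use.

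Vegfa lies on chromosome 17 (chr17:46016993-46032369, minus strand, 8 exon blocks), Flt1 and Kdr both lie on chromosome 5 (chr5:147561604-147726011 and chr5:75932827-75978458, minus strand), and Nrp1 lies on chromosome 8 (chr8:128358604-128503363, plus strand) in GRCm38, the build the submitters' processing notes call mm10. No other annotated gene shares exon bases with any of the 9 except Mir1903, a microRNA that shares 80 exon bases with Nrp1. The promoters of Flt1, Kdr and Nrp1 are shown because these 3 genes are the ones whose AS effect differed between the sexes (below). Each runs from 250 bases before to 50 bases after the RefSeq start (GRCm38.p6), with the ETS core GGAAG, or CTTCC where it lies on the other strand, in capitals. ETS factors are known regulators of endothelial genes.
Flt1, chr5:147725962-147726261, minus strand: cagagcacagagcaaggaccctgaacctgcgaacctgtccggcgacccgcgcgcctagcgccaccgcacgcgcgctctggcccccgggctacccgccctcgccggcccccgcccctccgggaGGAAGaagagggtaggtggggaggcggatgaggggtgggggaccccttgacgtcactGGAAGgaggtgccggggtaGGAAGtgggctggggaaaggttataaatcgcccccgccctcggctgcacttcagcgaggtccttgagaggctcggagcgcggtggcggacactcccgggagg
Kdr, chr5:75978406-75978705, minus strand: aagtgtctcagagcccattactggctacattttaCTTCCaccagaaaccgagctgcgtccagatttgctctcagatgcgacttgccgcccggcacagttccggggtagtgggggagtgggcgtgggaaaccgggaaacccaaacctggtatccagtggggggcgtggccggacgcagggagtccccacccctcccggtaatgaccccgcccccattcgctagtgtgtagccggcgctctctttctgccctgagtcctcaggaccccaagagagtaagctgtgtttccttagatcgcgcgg
Nrp1, chr8:128358823-128359122, plus strand: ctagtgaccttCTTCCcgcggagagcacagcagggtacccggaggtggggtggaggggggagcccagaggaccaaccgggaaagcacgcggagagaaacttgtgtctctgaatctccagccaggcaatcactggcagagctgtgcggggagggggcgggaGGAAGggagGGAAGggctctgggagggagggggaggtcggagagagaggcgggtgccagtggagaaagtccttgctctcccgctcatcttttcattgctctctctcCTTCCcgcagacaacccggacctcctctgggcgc
The Flt1 promoter held 3 cores, at 128, 71 and 52 bases before the start, the Kdr promoter 1, at 216 bases before it, and the Nrp1 promoter 4. Over the first promoter of each gene, 6 of 9 held the core, against 71.4% of 32851 mouse promoters. The GC box GGGCGG (either strand) was in 9 of 9, against 35.7% of promoters, and the hypoxia response core ACGTG was in none, against 19.6%. A second annotated Vegfa promoter, within the gene, held 1 hypoxia response core. These windows are short and the counts say nothing of whether a factor binds there.

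Levels were first set in order per kilobase of exon, the scale on which different genes can be compared. In mWT, Vegfa was highest at 2358 ± 261 TMM-scaled reads per kb (SD, n = 3), followed by Kdr at 1456 ± 515, Nrp1 at 952 ± 348, Flt1 at 368 ± 87.6, Vegfb at 301 ± 124, Flt4 at 103 ± 24.2, Nrp2 at 50.1 ± 14.3, Vegfc at 15.5 ± 0.72 and Pgf at 9.97 ± 3.42. Kdr and Nrp1 overlapped across the 3 libraries, as did Flt1 and Vegfb, and the other neighbours in this order did not. The order was the same in mAS, where Vegfa (2956 to 3827) overlapped Kdr (2243 to 3103) and Vegfb overlapped Flt4. In fWT Kdr came first (2519 and 4311) and its range overlapped that of Vegfa (2166 and 3080), which in turn overlapped Nrp1, and Vegfb overlapped Flt4. In fASht Vegfa was again first at 2840 ± 370 (n = 3), overlapping Kdr at 2480 ± 338, and Flt4 overlapped Nrp2 and Pgf overlapped Vegfc at the lower end. Vegfa and Kdr took the first 2 places in every group, and Vegfc and Pgf the last 2.

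**Figure D1:**
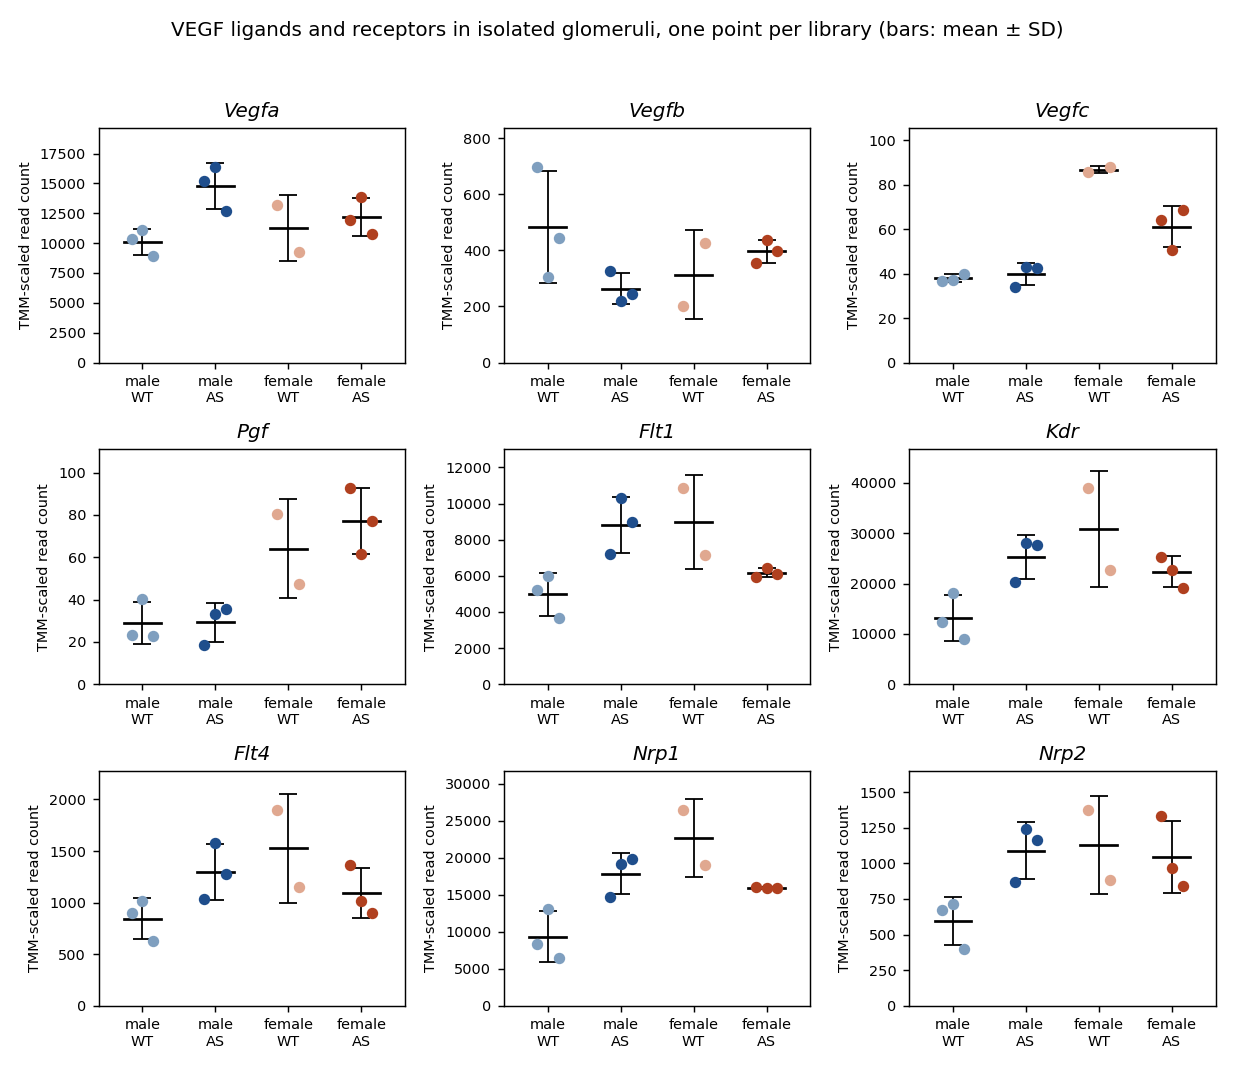
TMM-scaled read count (vertical axes, starting at 0) of the 9 genes in the 11 distinct libraries, 1 panel per gene. Points are libraries of male WT, male AS, female WT (2 distinct libraries) and female AS, and bars are the mean ± SD; the male AS points of Vegfa, Flt1, Kdr, Flt4, Nrp1 and Nrp2 all lie above the male WT points.

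In glomeruli of male AS mice, Vegfa, both neuropilins and the receptors Flt1 and Kdr were higher than in male WT mice, by 1.46- to 1.98-fold, while Vegfb, Vegfc, Pgf and Flt4 did not pass the test. That is 5 of 9 genes past the threshold (adjusted p under 0.05), all of them higher. Over all 15881 genes tested in males 35.5% passed in either direction and 16.6% were higher in AS, so that a change in this comparison is common. Of the genes past the test 46.8% were higher, and 78.8% with columns scaled to equal totals, under which the 5 genes also passed as higher. The groups did not overlap, with AS higher, for 6 of 9 genes, against 26.0% of all genes tested.

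Vegfa, the podocyte ligand, was at 10332, 11090 and 8890 in mWT replicates 1 to 3 and at 15247, 16400 and 12664 in mAS. Every AS library was above every WT library. The log2 fold change was 0.54 ± 0.18 (SE; adjusted p = 0.0450), and this call was lost when any single library other than mWT replicate 2 was left out (adjusted p up to 0.143). In females Vegfa was at 13197 and 9282 in fWT and at 11909, 13873 and 10733 in fASht. The 3 AS libraries lay within or close to the span of the 2 WT libraries, and the log2 fold change was 0.13 with a 95% interval of −0.36 to 0.62 (adjusted p = 0.760).

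Vegfb, a ligand of Flt1 linked to fatty acid uptake across endothelium, was at 699, 306 and 444 in mWT and at 327, 218 and 246 in mAS. Its log2 fold change in males was −0.77 ± 0.29 and it did not pass (adjusted p = 0.0672); mAS replicate 1 lay above mWT replicate 2. In females it was at 200 and 425 in fWT and at 355, 436 and 400 in fASht (log2 fold change 0.41, adjusted p = 0.433). Across libraries within groups its deviations ran against those of Kdr (Pearson r = −0.71) and of Nrp1 (r = −0.70). This is a description over 11 libraries whose level of tubule markers also varied within groups.

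Vegfc, the lymphatic growth factor, and Pgf were the least abundant. Vegfc ranged from 1.59 to 3.01 CPM in males and from 3.00 to 4.81 CPM in females, and Pgf from 1.01 to 2.41 and from 2.36 to 5.47 CPM, so that their values rest on few reads. In males Vegfc was at 36.9, 37.0 and 40.0 in mWT and at 34.1, 42.9 and 42.6 in mAS. The groups overlapped and the log2 fold change was 0.05, with an interval of −0.29 to 0.38. In females Vegfc was at 85.6 and 88.1 in fWT and at 64.2, 50.8 and 68.6 in fASht, all AS libraries below both WT libraries, with a log2 fold change of −0.41 that did not pass (adjusted p = 0.202). Pgf did not pass in either sex, with log2 fold changes of 0.01 (−0.50 to 0.51) in males and 0.23 (−0.31 to 0.78) in females. Vegfd, the remaining ligand of Flt4, did not pass either, at −0.30 in males and 0.21 in females.

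Of the receptors, Flt1 and Kdr were higher in male AS glomeruli and Flt4 did not pass. Flt1 was at 5230, 5995 and 3675 in mWT and at 7196, 10287 and 8992 in mAS, and its log2 fold change was 0.84 ± 0.22 (adjusted p = 0.0229). Kdr was at 12381, 18134 and 8924 in mWT and at 20251, 28018 and 27591 in mAS, with a log2 fold change of 0.99 ± 0.29 (adjusted p = 0.0319). No AS library of either gene fell within the WT range, and mWT replicate 3 was the lowest library for both. Flt4 was at 898, 1013 and 625 in mWT and at 1035, 1575 and 1281 in mAS. These groups also did not overlap, but by the narrow gap between 1013 and 1035, and the log2 fold change of 0.61 ± 0.21 missed the threshold (adjusted p = 0.0568).

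Flt4 is best known as the receptor of lymphatic endothelium and is also made by fenestrated blood capillaries, among them those of the glomerulus. The summed values of the lymphatic markers lay between 184 and 226 in mWT and between 115 and 224 in mAS, and their part in the Flt4 values was not tested. Of 3 lymphatic markers tested in males 1 was lower, and in females 1 of 4 was higher, Prox1. Ccl21a, a chemokine of lymphatic endothelium, was at 0 in 4 of 6 male libraries.

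The neuropilins followed the same pattern in males. Nrp1 was at 8358, 13105 and 6498 in mWT and at 14620, 19107 and 19769 in mAS (log2 fold change 0.98 ± 0.27, adjusted p = 0.0277). Nrp2 was at 669, 711 and 399 in mWT and at 866, 1241 and 1160 in mAS (0.88 ± 0.24, adjusted p = 0.0245). Again every AS library was above every WT library. With any 1 of 4 libraries left out (mWT replicate 1 or 3, mAS replicate 2 or 3) 0 of the 9 genes passed, the adjusted p of these 5 genes lying between 0.0525 and 0.143, whereas 7 passed without mWT replicate 2 and 5 without mAS replicate 1. The proximal tubule markers were lower in male AS, where these 5 genes were higher. With the mean log2 value of those markers as a covariate 0 of 9 genes passed. Vegfa went to 0.03, Flt1, Kdr, Nrp1 and Nrp2 turned to between −0.17 and −0.03, Flt4 turned to −0.51 and Vegfb to 0.24. None of the 15881 genes passed (817 had an unadjusted p under 0.05), so that in these 6 libraries genotype and the level of tubule markers cannot be told apart.

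In glomeruli of heterozygous female AS mice none of the 9 genes passed the test (limma), against 1.40% of 15803 genes tested. At an unadjusted p under 0.05 there were 3 of 9, Vegfc, Flt1 and Nrp1, against 21.8% of all genes. The same 3 were the ones whose groups did not overlap with AS lower, against 21.3% of all genes. Flt1 was at 10843 and 7147 in fWT and at 5953, 6437 and 6116 in fASht. Its log2 fold change was −0.51 ± 0.19, with a 95% interval of −0.97 to −0.06 and an adjusted p of 0.188. Nrp1 was at 26431 and 18982 in fWT and at 16012, 15872 and 15887 in fASht (−0.49 ± 0.20, adjusted p = 0.214). The 3 AS libraries were nearly equal for this gene, and the spread lay in the 2 WT libraries.

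Kdr was at 38931 and 22746 in fWT and at 25283, 22699 and 19202 in fASht, with a log2 fold change of −0.42 and an interval of −1.08 to 0.25. Flt4 was at 1898 and 1151 in fWT and at 1363, 1020 and 902 in fASht (−0.45, −1.04 to 0.14), and Nrp2 was at 1374 and 885 in fWT and at 1330, 966 and 842 in fASht (−0.10, −0.68 to 0.48). For each of these 3 genes fWT replicate 1 was the highest female library, and the AS libraries overlapped fWT replicate 2. The female values turned on which WT library was kept. Without fWT replicate 2 the log2 fold change was −0.81 for Flt1, −0.81 for Kdr, −0.73 for Nrp1 and 0.92 for Vegfb. Without fWT replicate 1 it was −0.21, −0.03, −0.25 and −0.10 in the same order. Each of these fits has 1 WT library, which is assumed to vary like the AS libraries. Proximal tubule markers also differed between the 2 WT libraries, with a mean log2 value of 12.32 in replicate 1 and 13.25 in replicate 2, and with these markers as a covariate 5 of 9 genes passed, Flt1, Kdr, Flt4 and Nrp1 as lower and Vegfb as higher, against 15.0% of all genes tested in that fit.

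**Figure D2:**
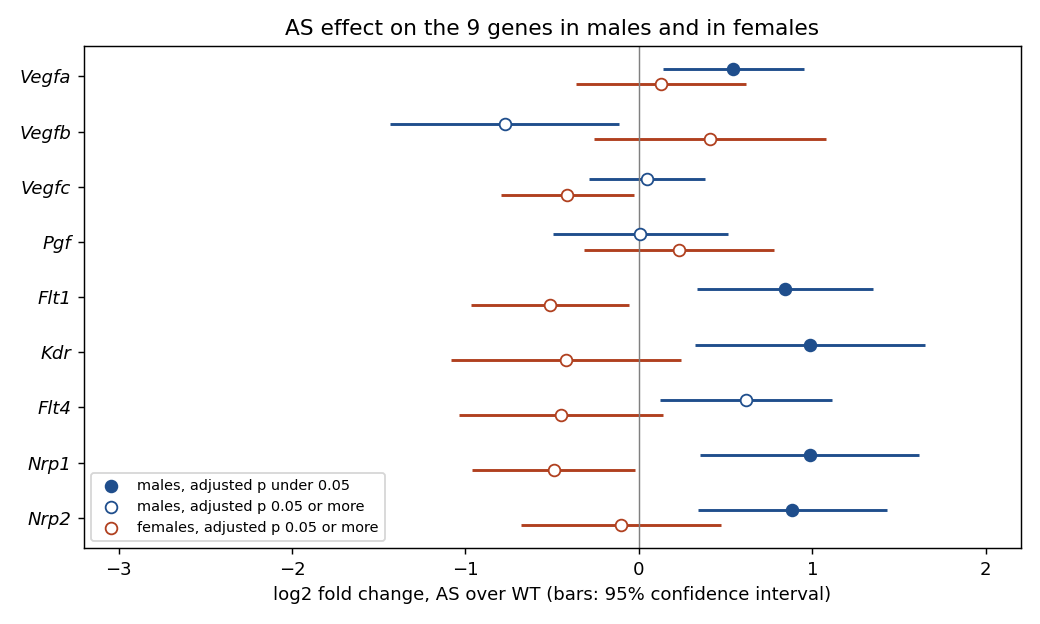
Log2 fold change of AS over WT (horizontal axis) for each of the 9 genes in males (blue) and in females (red), with 95% confidence intervals as bars; filled points passed at an adjusted p under 0.05. The 5 filled points are all male, and for the 3 receptors and 2 coreceptors the male points lie right of 0 and the female points left of 0.

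The AS effect on Flt1, Kdr and Nrp1 differed between males and heterozygous females. AS males carried the mutation in their single copy of Col4a5 and AS females were heterozygous, so that sex and Col4a5 genotype cannot be told apart. In females the header code and genotype cannot be told apart either. The female effect minus the male effect was −1.35 ± 0.32 on the log2 scale for Flt1 (adjusted p = 0.0234), −1.41 ± 0.43 for Kdr (adjusted p = 0.0399) and −1.48 ± 0.37 for Nrp1 (adjusted p = 0.0261), in a fit of all 4 groups. These were 3 of 9 genes, each with the female effect lower. Over the 16525 genes tested 21.8% passed in either direction and 9.68% in this one. For Flt1 and Nrp1 every male AS library was above every male WT library and every female AS library was below both female WT libraries. Flt4 (−1.06, adjusted p = 0.0553), Nrp2 (−0.99, adjusted p = 0.0809) and Vegfb (1.18, adjusted p = 0.0790) did not pass. For Vegfa the difference was −0.42, with an interval of −1.01 to 0.18. The results changed with single libraries. Without fWT replicate 1 the difference was −1.05 for Flt1, −1.02 for Kdr and −1.24 for Nrp1. Without fWT replicate 2 it was −1.65, −1.79 and −1.71 in the same order. In both fits the lone female WT library is assumed to vary like the other groups. Counts are given here only for fits that kept both female WT libraries. Among these, none of the 9 genes passed without mWT replicate 1, mWT replicate 3 or fASht replicate 3, where 2.26% to 4.43% of all genes passed. Without mAS replicate 3 or fASht replicate 2, 1 gene passed (8.07% and 6.63% of all genes), and without mWT replicate 2 there were 5 (29.5%). Podocyte (12 of 18) and endothelial markers (11 of 20) also had lower effects in females, with medians of −1.28 and −1.11, and proximal tubule markers (19 of 20) higher ones, with a median of 2.06. With proximal tubule markers as a covariate, an alternative chosen after seeing the data, none of the 9 genes passed and the difference was −0.35 for Flt1, −0.14 for Kdr and −0.52 for Nrp1.

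To set the genes beside the cells that make them, the mean log2 value of the podocyte markers was subtracted from that of Vegfa in each library, and the mean of the 20 endothelial markers from those of Flt1, Kdr, Flt4 and Nrp1. These 10 comparisons were tested by exact permutation, which cannot go below p = 0.10 with 3 against 3 libraries or 0.20 with 2 against 3, so that none could pass. Relative to podocyte markers, Vegfa was at 1.07, 0.82 and 1.12 in mWT and at 0.80, 0.58 and 0.46 in mAS. It was thus lower in AS in every male library, by −0.39 (exact p = 0.10), although the value turned to 0.09 when the median of the markers replaced their mean. In females it ran the other way, at 0.30 and 0.22 in fWT and at 0.68, 0.64 and 0.53 in fASht, a difference of 0.35 (exact p = 0.20).

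Relative to endothelial markers, Kdr was at 2.35, 2.47 and 2.37 in mWT and at 2.61, 2.56 and 2.72 in mAS, a difference of 0.23 (exact p = 0.10). Nrp1 was higher by 0.23 on this scale in males (exact p = 0.10), again with no overlap of the groups. With the median of the markers in place of their mean, Kdr and Nrp1 were each higher by 0.19 in males (exact p = 0.20 for both). The differences for Flt1 (0.08, exact p = 0.20) and Flt4 (−0.14, exact p = 0.30) were within the spread of the WT libraries. Over the same male libraries the median log2 fold change of the endothelial markers was 0.84, beside 0.84 for Flt1, 0.99 for Kdr, 0.61 for Flt4 and 0.98 for Nrp1. In females the difference was −0.18 for Flt1, −0.08 for Kdr, −0.11 for Flt4 and −0.16 for Nrp1 (exact p of 0.20 to 0.60). With the median of the markers in place of their mean these became −0.02, 0.08, 0.05 and 0.01.

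**Figure D3:**
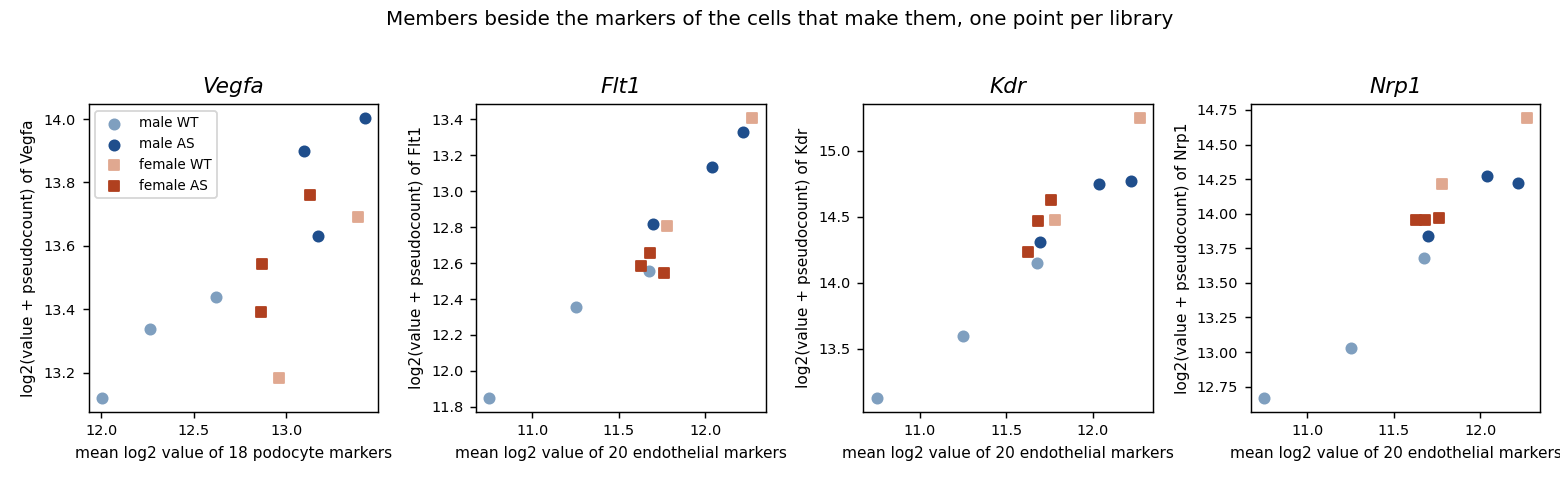
Log2 of the TMM-scaled value plus the pseudocount of Vegfa, Flt1, Kdr and Nrp1 (vertical axes) beside the mean log2 value of 18 podocyte or 20 glomerular endothelial markers (horizontal axes), 1 point per library (circles male, squares female, light WT, dark AS). The receptors and Nrp1 rise with their markers, from mWT replicate 3 (endothelial mean 10.75) at the lower left to fWT replicate 1 (12.27) at the upper right, and Vegfa scatters more. Relative to these markers Kdr and Nrp1 were at 2.98 and 2.42 in fWT replicate 1. In mAS replicate 2 (endothelial mean 12.22) they were at 2.56 and 2.01. These 2 libraries differ in sex and genotype, and their levels were not compared. Values of the sexes may have been scaled apart.

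The ratio of the trap receptor to the signalling receptor, Flt1 over Kdr, was 0.42, 0.33 and 0.41 in mWT and 0.36, 0.37 and 0.33 in mAS on the scale of the deposited values. It was 0.28 and 0.31 in fWT and 0.24, 0.28 and 0.32 in fASht. The groups overlapped in both sexes, and gene values do not separate membrane-bound from soluble Flt1. The ligand over its trap, Vegfa over Flt1, was 1.98, 1.85 and 2.42 in mWT and 2.12, 1.59 and 1.41 in mAS, overlapping, and 1.22 and 1.30 in fWT against 2.00, 2.16 and 1.76 in fASht, not overlapping. These ratios were not tested.

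Within groups the receptors and neuropilins varied together. Over the 11 libraries, after group means were subtracted, Pearson's r was 0.91 between Flt1 and Kdr, 0.94 between Kdr and Nrp1 and 0.98 between Flt4 and Nrp2, and between 0.50 and 0.69 for Vegfa with each of the 5. Of 11517 genes compared, those most like Kdr were Arhgap31, a regulator of Rac and Cdc42 (r = 0.996), Fgd5, an activator of Cdc42 in endothelium (0.990), and Efnb2, the ligand ephrin-B2 (0.988). Those most like Flt1 were the kinase Fyn (0.988), the protease Capn2 (0.986) and Ccdc8 (0.984). Those most like Vegfa were Mbd6 (0.970), Zswim8 (0.950) and the kinase Yes1 (0.949). Such values are descriptions, since libraries of the same group differ in their level of tubule markers and in depth.

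Genes known to be induced by VEGF in endothelial cells were higher in male AS glomeruli more often than lower. Of 20 such genes 11 were higher and none was lower (median log2 fold change 0.73). Over all genes tested in males 16.6% were higher and 35.5% passed in either direction. The 4 with the largest change were Spry4, a feedback inhibitor of receptor kinases (1.37 ± 0.22, adjusted p = 0.00653), the homeobox factor Hlx (1.31 ± 0.27, adjusted p = 0.0113), the netrin receptor Unc5b (1.24 ± 0.25, adjusted p = 0.0111) and the peptide Apln (1.09 ± 0.26, adjusted p = 0.0175). In females none of the 20 passed, with a median of −0.01. The sexes differed for 8 of 20, with the lower effect in females for each, against 9.68% of all genes tested. The endothelial markers had a median of 0.84 in the same male libraries, and their part in these counts was not tested.

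Among the neuropilin ligands and the plexins, through which semaphorins signal, 8 of 13 tested were higher in male AS, 1 was lower and the median was 0.72. Of all genes tested in males 16.6% were higher and 35.5% passed in either direction. Plxna4 (1.26 ± 0.16, adjusted p = 0.00435), Plxnd1 (1.15 ± 0.26, adjusted p = 0.0143) and Plxna3 (1.00 ± 0.19, adjusted p = 0.00957) were higher. Sema3c fell, with a log2 fold change of −2.07 ± 0.36 (adjusted p = 0.00780). It was at 573, 348 and 742 in mWT and at 163, 61.1 and 139 in mAS, and at 201 and 302 in fWT against 189, 211 and 266 in fASht. None of the 13 passed in females.

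Among genes of signal transduction from the VEGF receptors, 8 of 28 were higher in male AS, 1 was lower and the median was 0.20. The 9 of 28 past the test stand beside 35.5% of all genes tested in males. Endothelial nitric oxide synthase Nos3 (0.88 ± 0.21, adjusted p = 0.0166) and the kinase Fyn (0.83 ± 0.21, adjusted p = 0.0195) were higher and Src was lower (−0.74 ± 0.18, adjusted p = 0.0186). In males 19 of the 28 did not pass, and in females none did.

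Of genes that traffic, process or inhibit VEGF and its receptors, 6 of 16 tested were higher in male AS and 3 were lower (median 0.37). The share past the test over all genes in males was 35.5%, with 16.6% higher. Ccn2 (connective tissue growth factor), a matrix protein that binds Vegfa, rose most, from 6718, 9015 and 5155 in mWT to 21784, 30735 and 26528 in mAS (1.94 ± 0.24, adjusted p = 0.00421). In females it was at 20751 and 20100 in fWT and at 15079, 13314.5 and 17712 in fASht and did not pass, and the effects differed between the sexes by −2.36 ± 0.33 (adjusted p = 0.0150). Ptprb (VE-PTP), an endothelial phosphatase acting on Kdr and Tek that is also among the endothelial markers, was higher by 1.08 ± 0.23 (adjusted p = 0.0122). The endocytic adaptor Dab2 (−1.16 ± 0.24, adjusted p = 0.0112) and the tetraspanin Cd63 (−1.15 ± 0.21, adjusted p = 0.00810) were lower. Dab2 is also abundant in proximal tubule, whose markers fell in the same libraries, and their part in this value was not tested.

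Hypoxia is the best known inducer of Vegfa. Of 21 genes of hypoxia and Vegfa transcription tested, 2 were higher and 7 were lower in male AS, 12 did not pass and the median was −0.15. These counts stand beside 35.5% of all genes tested in males that passed in either direction. Proximal tubule markers (20 of 20) were lower in the same libraries, and their part in these values was not tested. Ndrg1 (−1.62 ± 0.33, adjusted p = 0.0106), the mitophagy receptor Bnip3 (−1.38 ± 0.23, adjusted p = 0.00698) and the carbonic anhydrase Car9 (−1.0 ± 0.24, adjusted p = 0.0166) were lower. Car9 was at 33.2, 18.5 and 48.5 in mWT and at 10.8, 4.0 and 7.0 in mAS. These values lie near the pseudocount of 17.6 and rest on few reads. Adm, the vasodilator peptide adrenomedullin, was higher, at 510, 436.5 and 338 in mWT and at 1202, 1259 and 923 in mAS (1.37 ± 0.18, adjusted p = 0.00498). Adm was also 1 of the 2 genes of these 5 groups that passed in females, at 390 and 396 in fWT and at 661, 725.5 and 736 in fASht (0.82 ± 0.11, adjusted p = 0.0332). The other was Pdk1, a kinase that turns off pyruvate oxidation, at 462 and 471 in fWT and at 977, 858 and 726 in fASht (0.84 ± 0.14, adjusted p = 0.0486). In males Pdk1 was at 823, 730 and 1172 in mWT and at 764, 308 and 440 in mAS and did not pass. Adm was thus higher in every AS library than in every WT library of its own sex, in both sexes.

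**Figure D4:**
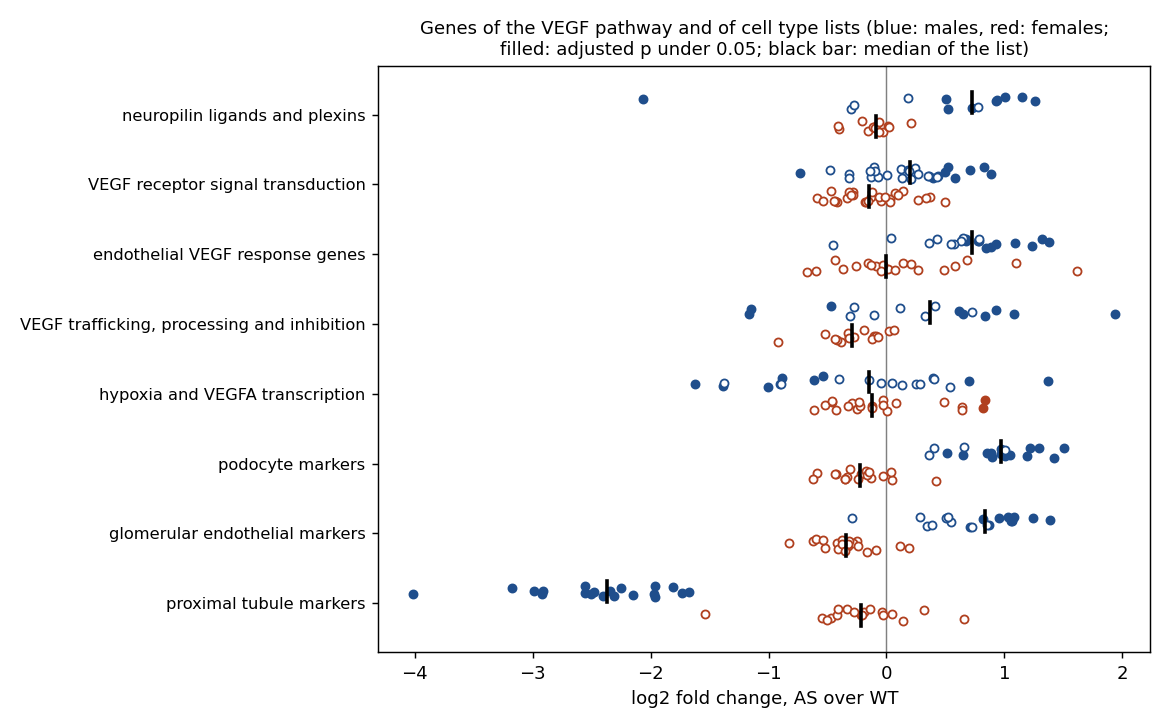
Log2 fold change of AS over WT (horizontal axis) of the genes of 5 VEGF pathway groups and of 3 cell type marker lists (rows), 1 point per gene, males in blue and females in red, filled where the adjusted p was under 0.05; black bars are medians. In males the endothelial response genes (median 0.73) sit with the endothelial markers (0.84), proximal tubule markers lie far to the left (−2.37), and the only filled female points are Adm and Pdk1.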

How the data were processed

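The values the authors deposited are a signal per gene and sample: reads were trimmed (cutadapt), aligned to mm10 (STAR) and counted and scaled by TMM in Partek, with no versions given and the strand setting of the counting not given in the sources used here. Glomeruli had been freed by collagenase and sieving, and libraries were stranded, polyA-selected and paired-end. As only 79.1% to 82.3% of values were whole multiples of the smallest step (tolerance 0.01), counts were not recovered. Males and females came in separate tables, which may have been scaled apart, so tests ran within each sex and levels of the sexes were not compared.

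A pseudocount equal to 1 CPM, taken from the average column sum (17.6 in males, 17.8 in females and 17.7 over both), was added before taking log2. Genes reaching 0.5 CPM in 3 or more libraries were tested with limma 3.58.1 (R 4.3.3; mean-variance trend, two-sided), and Benjamini-Hochberg adjusted p-values were read at 0.05. Fold changes are on this scale, which understates those of low genes. All 9 genes passed the filter. The sexes were compared as the contrast of both AS effects in 1 fit. The procedure was tested on simulated data with independent noise for each gene. Such data lack the tubule differences that many genes share here, so the simulation does not bear on them. Alternatives were other pseudocounts, filters and scalings, the study's own kind of threshold, a replicate block, both sexes in 1 fit, proximal tubule markers as covariate, the repeated library kept, and each library left out. The genes named are the 9, up to 4 per pathway list with the largest male change past the test, those past it in females, the 3 genes most like Vegfa, Flt1 and Kdr, and Col4a5; lymphatic Prox1 and Ccl21a were named after their values were seen, and 1 gene the rule names is not reported here. The members and all lists were chosen with earlier results of these data known. Positions are from GENCODE M21, sequences from RefSeq and the genome.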

Additional observations from a re-analysis of the deposited data

Results flagged for a closer look

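The AS effect differed between females and males for 3 of the 9 genes by a test of the difference itself (limma, adjusted over all genes): Flt1 at −1.35, Kdr at −1.41 and Nrp1 at −1.48 on the log2 scale, the female effect minus the male effect. All 5 female libraries and all 6 male libraries entered these values, and each female effect rests on 2 distinct WT libraries. The headers of these WT libraries carry another code than those of the female AS libraries. AS males carried the mutation in their single copy of Col4a5 and AS females were heterozygous, so that sex and Col4a5 genotype cannot be told apart. Groups of 2 or 3 libraries were too small to look for single libraries that stand apart.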

How the results depend on the processing

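Of the 9 genes, 5 passed in males, 0 in females and 3 for the difference between the sexes. In males the count was 5 or 6 with other pseudocounts, a filter at 2 CPM, 3 other scalings, both sexes in 1 fit and the study's kind of threshold (unadjusted p under 0.05 and a fold of at least 1.5). Under the study's kind of threshold the genes changed: Vegfa (1.46-fold) dropped out, Vegfb entered as lower and Flt4 as higher. The male count was 0 without a filter on low values and 0 with proximal tubule markers as a covariate. That covariate turned Flt1 to −0.17, Kdr and Nrp2 to −0.13 and Nrp1 to −0.028. Leaving out single libraries gave male counts of 0 to 7. In females it was 5 with that covariate and 0 to 4 with single libraries left out, and 0 otherwise, also with the repeated library kept. For the difference it was 1 without a filter, 0 with the covariate, 6 with the study's kind of threshold and 0 to 6 with single libraries left out. Without fWT replicate 1 or 2 the lone female WT library is assumed to vary like the other groups. Over all genes 5641 passed in males (0 with the covariate, 2488 to 5878 with single libraries left out), 222 in females (8 without a filter, 134 with quantile normalization, 147 with a filter at 2 CPM, 674 with equal totals, 881 with a replicate block, 2375 with the covariate, 2517 with the repeated library kept, 4 to 1805 with single libraries left out) and 3597 for the difference (1405 without a filter, 0 with the covariate, 2 to 4860 with single libraries left out). Of the calls in the female comparison 75.2% were higher in AS (92.9% with equal totals). With equal column totals the median of all genes was 0.36 in males, 0.12 in females and −0.19 for the difference, against 0.00, −0.01 and 0.01 as deposited. The cause of these changes was not tested; without the filter more genes entered the adjustment.

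With the median of the markers in place of their mean, Vegfa relative to podocyte markers in males moved from −0.39 to 0.085, Flt1 relative to endothelial markers in females from −0.18 to −0.016 and Nrp1 in females from −0.16 to 0.0053. With single libraries left out, Vegfa relative to podocyte markers lay between −0.49 and −0.31 in males and between 0.31 and 0.39 in females, and Flt1 relative to endothelial markers lay between 0.0096 and 0.12 in males.

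The labels do not say whether replicate numbers pair the libraries. Deviations of same-numbered libraries correlated at 0.05, 0.52 and 0.06 in males and at 0.26 and −0.05 in females, which does not settle it. With a replicate block 7 of the 9 genes passed in males and 0 in females. Over all genes 6413 then passed in males and 881 in females, against 5641 and 222 without it. Vegfc and Pgf, at 1.01 to 5.47 CPM, are limited by depth.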
